A study of Homo sapiens with 12 samples.

Results

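The genes described here encode the nuclear subunits of the mitochondrial respiratory chain and of ATP synthase. They were the protein-coding genes whose symbol begins with NDUFA, NDUFB, NDUFC, NDUFS or NDUFV and a number, is SDHA, SDHB, SDHC or SDHD, or begins with UQCR, COX4 to COX8 or ATP5. The rule took 85 of 36502 genes in the table, of which 18157 are protein-coding: 38 of complex I, 4 of complex II, 8 of complex III, 16 of complex IV and 19 of complex V. A further 44 genes with a matching symbol carry another biotype, mostly pseudogenes, and were not members. By background knowledge the rule also took genes that are not subunits: COX4NB, a component of an endoplasmic reticulum complex, ATP5S and ATP5SL, which are not parts of the ATP synthase complex itself, and COX7A2L, a factor that joins complexes III and IV. The symbols COX6A1P2 and ATP5EP2 name copies of COX6A1 and ATP5E, and NDUFA4 is now counted with complex IV, although it is placed by its symbol here.

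RNA was sequenced from HT1080, a human fibrosarcoma line, in 2 clones, each in 3 conditions with 2 libraries. The GFP clone carries the m6A-Tracer, GFP joined to a protein domain that recognises methylated adenine, and the VP16 clone carries the same tracer with an added VP16 activation domain. The uninduced groups (GFP_uninduced, VP16_uninduced) were kept in 50 ng/ml doxycycline for 4 days. The tracer groups (GFP_tracer, VP16_tracer) had 3 days of doxycycline and then 24 h without it, which switches the tracer on. The Dam groups (GFP_tracer_Dam, VP16_tracer_Dam) were treated in the same way and received 500 nM Shield1, which raises Dam-LaminB1, a DNA adenine methyltransferase fused to lamin B1. All cells were grown in DMEM with serum and all had been given doxycycline. Each tracer was carried by 1 clone, so clone and construct cannot be told apart. Doxycycline withdrawal and tracer expression, and likewise Shield1 and Dam-LaminB1, cannot be told apart either. Separate cultures are not stated for the 2 libraries of a group, so a p-value here reflects the spread of these libraries alone, and that spread may be technical. By the index sequences in their titles the libraries form index sets 1 and 2, each with 1 library of every group.

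The libraries held 18774905 to 24827396 counts. The mesenchymal genes VIM and FN1 stood at 1745 to 4206 and 520.1 to 2619 CPM, the counts of a gene relative to the library total, whereas the 4 epithelial and 4 blood markers stayed under 1 CPM in every library. COL1A2, a defining gene of fibroblasts, was at most 0.217 CPM, and THY1, another mesenchymal marker, at most 0.814 CPM. The GFP_tracer and GFP_tracer_Dam libraries of index set 1 stood apart from the rest. DDIT3, ASNS and CHAC1, genes of the integrated stress response, read 93.6, 340.9 and 81.1 CPM in the former and 77.4, 420.4 and 76.0 CPM in the latter, against at most 8.12, 108.1 and 9.08 CPM in the other 10 libraries. The counts of calls and the medians between the clones and in the GFP tracer comparison are given with and without these 2 libraries, as are the calls on the other gene lists.

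Complex I takes electrons from NADH and complex II from succinate, complex III passes them to cytochrome c, complex IV passes them to oxygen, and complex V uses the proton gradient that I, III and IV build to make ATP. Complexes I, III, IV and V combine subunits encoded in the nucleus with subunits encoded in mitochondrial DNA, while complex II is wholly nuclear. The nuclear subunit genes are scattered over the genome and are known to share binding sites for NRF1, for ETS-family factors such as GABP and for YY1 in their promoters, and the coactivator PPARGC1A (PGC-1alpha) is a known regulator of the group.

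Promoter windows were searched for such letters. Of the 85 members, 64 matched a RefSeq window (GRCh38.p14, 250 bases before to 50 after the most upstream start). Both strands were searched for GCGCANGCG (NRF1), CCGGAAG (ETS), AAGATGGC (YY1) and GGGCGGG (SP1), and overlapping matches were counted apart. The NRF1 letters were in 19 of the 64 windows (29.7%) and in 8.0% of 27305 RefSeq windows. The ETS letters were in 20 (31.2%, against 10.6%) and the YY1 letters in 10 (15.6%, against 3.0%), while the SP1 letters were in 18 (28.1%, against 32.7%). Among the complexes NRF1 letters were in 8 of 30 windows for complex I, 2 of 3 for II, 4 of 7 for III, 1 of 12 for IV and 4 of 12 for V. ETS letters were in 6 of the 12 complex IV windows, and 17 members had none of the 4 motifs. The 27305 windows were not limited to expressed genes or matched to the members in base content. A match describes the letters only.

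The 6 windows below are printed because their genes carry the contrasts in the results: SDHA, UQCRFS1 and NDUFA9 were among the lowest in the libraries with high stress genes, COX7A2L was high there, UQCR11 differed between the index sets and ATP5J holds 3 of the 4 motifs. Each is the RefSeq sequence (GRCh38.p14) from 250 bases before to 30 after the start, 5′ to 3′ on the strand of the gene, with motif matches in capitals. SDHA lies at chr5:218070-218349 (plus strand), UQCRFS1 at chr19:29213122-29213401 (minus), NDUFA9 at chr12:4648864-4649143 (plus), ATP5J (ATP5PF in RefSeq) at chr21:25735025-25735304 (minus), UQCR11 at chr19:1605433-1605712 (minus) and COX7A2L at chr2:42368928-42369207 (minus).
SDHA: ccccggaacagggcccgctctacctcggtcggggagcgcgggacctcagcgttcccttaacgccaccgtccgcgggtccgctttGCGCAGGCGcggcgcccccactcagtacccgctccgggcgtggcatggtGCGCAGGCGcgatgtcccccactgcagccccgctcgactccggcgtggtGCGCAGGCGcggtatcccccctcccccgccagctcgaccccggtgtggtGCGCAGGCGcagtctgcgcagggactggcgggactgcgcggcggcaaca
UQCRFS1: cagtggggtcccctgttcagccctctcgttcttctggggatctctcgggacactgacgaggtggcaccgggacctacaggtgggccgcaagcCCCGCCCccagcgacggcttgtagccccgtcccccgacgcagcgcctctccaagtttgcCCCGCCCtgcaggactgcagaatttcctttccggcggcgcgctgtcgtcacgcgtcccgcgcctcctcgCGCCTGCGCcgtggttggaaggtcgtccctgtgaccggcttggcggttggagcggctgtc
NDUFA9: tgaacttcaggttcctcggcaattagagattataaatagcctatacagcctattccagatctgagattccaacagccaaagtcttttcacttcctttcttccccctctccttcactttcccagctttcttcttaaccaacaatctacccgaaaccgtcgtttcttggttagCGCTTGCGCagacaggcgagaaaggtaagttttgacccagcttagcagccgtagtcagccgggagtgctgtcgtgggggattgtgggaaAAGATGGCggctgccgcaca
ATP5J: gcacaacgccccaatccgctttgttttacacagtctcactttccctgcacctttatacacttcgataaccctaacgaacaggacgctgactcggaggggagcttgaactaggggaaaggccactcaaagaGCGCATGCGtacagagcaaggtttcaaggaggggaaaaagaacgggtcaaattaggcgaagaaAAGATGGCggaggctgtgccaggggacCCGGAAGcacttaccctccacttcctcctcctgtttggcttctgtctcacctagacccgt
UQCR11: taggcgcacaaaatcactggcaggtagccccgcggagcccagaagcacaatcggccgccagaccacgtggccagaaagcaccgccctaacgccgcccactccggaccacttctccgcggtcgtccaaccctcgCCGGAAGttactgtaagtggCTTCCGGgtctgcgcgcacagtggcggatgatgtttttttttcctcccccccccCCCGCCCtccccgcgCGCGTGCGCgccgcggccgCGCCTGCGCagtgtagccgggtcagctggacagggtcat
COX7A2L: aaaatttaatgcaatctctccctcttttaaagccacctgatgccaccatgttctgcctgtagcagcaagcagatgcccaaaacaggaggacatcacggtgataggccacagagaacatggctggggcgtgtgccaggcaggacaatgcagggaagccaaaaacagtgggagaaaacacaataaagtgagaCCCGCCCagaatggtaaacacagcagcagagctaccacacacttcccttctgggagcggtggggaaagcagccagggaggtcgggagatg
The SDHA window holds 4 NRF1 matches 49 bases apart, the last beginning 19 bases before the start. UQCRFS1 has 1 NRF1 match 30 bases before the start and 2 SP1 matches, and NDUFA9 has 1 NRF1 match and a YY1 match that begins 10 bases after the start. ATP5J holds 1 NRF1, 1 YY1 and 1 ETS match, UQCR11 holds 2 NRF1, 2 ETS and 1 SP1 match, and COX7A2L holds a single SP1 match.

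Together the 85 members took between 0.694% and 0.823% of all counts in a library. Complex V contributed most, at 2472 to 3362 CPM summed over its genes, then complex I at 2034 to 2301, complex IV at 1120 to 1289, complex III at 872.6 to 1037 and complex II at 303.5 to 417.8 CPM. CPM here is scaled by TMM, a factor that corrects for differences in RNA composition. Levels between genes were compared per kilobase of coding sequence (GENCODE 29), which leaves out untranslated parts of the transcripts. On that scale the 2 highest genes of each complex were NDUFS5 (410.4 CPM per kb) and NDUFB9 (287.8) for complex I, SDHB (145.4) and SDHD (128.3) for II, UQCRH (622.7) and UQCR11 (443.3) for III, COX7C (1010) and COX6B1 (504.3) for IV, and ATP5E (1138) and ATP5B (632.8) for V. ATP5B encodes the catalytic beta subunit of ATP synthase, UQCRH the hinge protein of complex III, SDHB the iron-sulfur subunit of complex II, SDHD one of its membrane anchors, and the others small subunits.

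**Figure D1:**
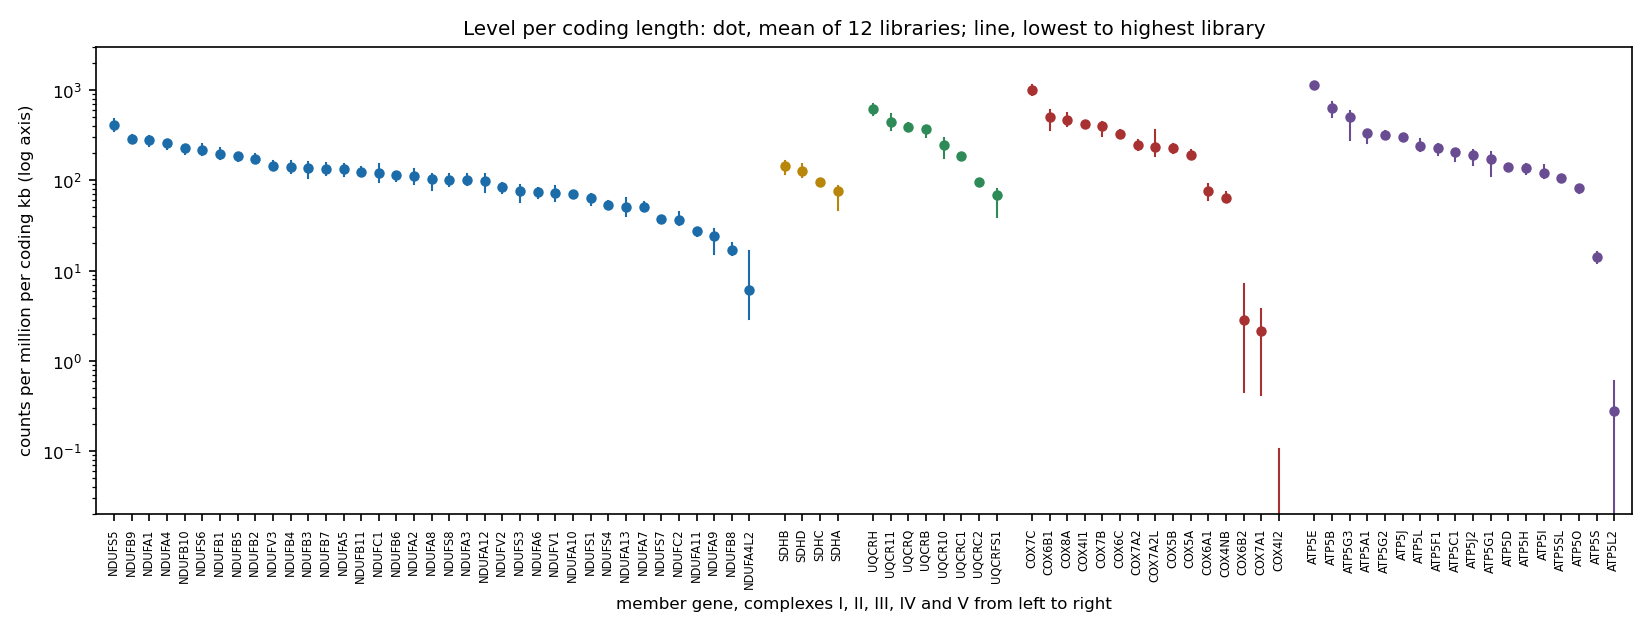
Level of members in CPM per kilobase of coding sequence on a log axis, by complex; dots are means of 12 libraries and lines run from the lowest to the highest library. ATP5E and COX7C are highest at 1138 and 1010, and COX6B2, COX7A1 and ATP5L2 lie far below the other genes of their complexes. Lines of genes at 0 in some library run to the foot of the axis, and the mean of COX4I2 lies under it.

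Several subunits of complexes IV and V have paralogs known from other tissues, and in several families 1 form gave nearly all counts. COX4I1 supplied 57873 of 57875 counts of its pair, with COX4I2, the form known from lung, at 2 counts over the 12 libraries together. COX6B1 gave 99.4% of its pair (95% interval 99.3 to 99.5, exact Clopper-Pearson, counting error only) and COX6B2, the testis form, the remaining 198 counts. COX7A1, the heart and muscle form, had 137 counts in all, 0.346% (0.291 to 0.409) of the counts of COX7A1, COX7A2 and COX7A2L. The shares of single libraries ranged wider than these intervals, from 0.0558% to 0.614% for COX7A1 and from 98.74% to 99.91% for COX6B1. ATP5L2 had 22 counts against 20164 of ATP5L, and ATP5EP2 0.894% of the counts of its pair with ATP5E. COX4I2 and ATP5L2 were under the count filter, so 83 of the 85 members were tested. The 3 genes for the c ring of ATP synthase, whose mature proteins are identical, were all present: ATP5G3 gave 50.9% of their counts, ATP5G2 32.2% and ATP5G1 16.9%. ATP5G3 led ATP5G2 in every library but GFP_tracer_Dam of index set 1, where ATP5G2 gave 44.2% and ATP5G3 40.4%. NDUFA4L2, known as a hypoxia-inducible paralog of NDUFA4, gave between 1.29% and 7.45% of the pair. COX5A and COX5B, which are different subunits despite their names, averaged 191.6 and 228.3 CPM per kb.

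Members varied little among the 12 libraries. The median SD of log2 CPM over all libraries was 0.122 for the 83 tested members against 0.299 for all 17262 genes tested. Among genes with a mean of at least 10 CPM it was 0.12 for 76 members and 0.21 for 9625 genes. The highest library of a member was 1.33 times the lowest at the median, against 1.97 times for all genes. NDUFA10 (69.6 to 78.0 CPM) and UQCRC1 (252.6 to 281.8 CPM), a core protein of complex III, moved least, with an SD of 0.0468 and 0.0549.

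**Figure D2:**
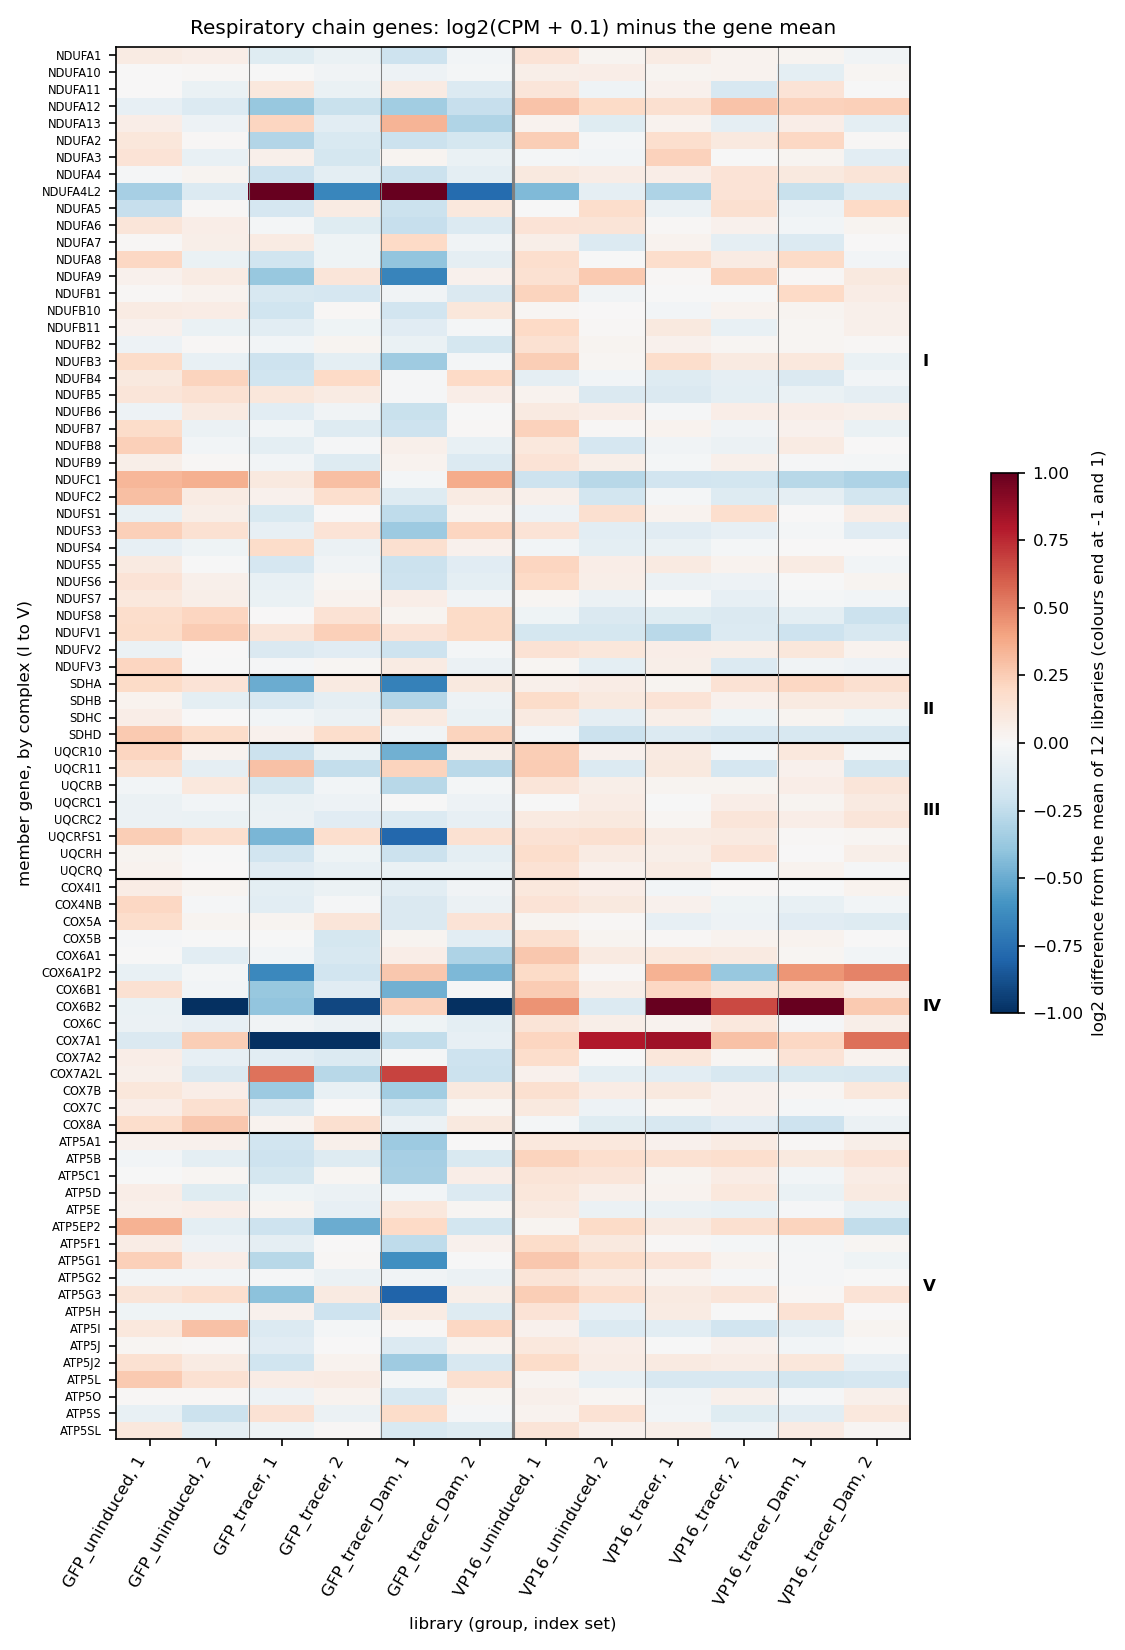
Each row is a tested member and each column 1 library, named by group and index set; colour is log2(CPM + 0.1) minus the mean of that gene, from -1 (blue) to 1 (red). Most rows are pale, the columns GFP_tracer 1 and GFP_tracer_Dam 1 are bluer than the rest, and NDUFA12, NDUFV1 and NDUFC1 differ between the GFP and the VP16 columns.

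The first question was whether the clones differ. Averaged over the 3 conditions, 5 of 83 members (6.02%) passed an edgeR adjusted p under 0.05, where 7.64% of all genes did. NDUFA12, ATP5B and COX7A1 were higher in the VP16 clone (3 members, with 2.62% of all genes higher), and NDUFV1 and NDUFC1 were lower (2 members, with 5.01% of all genes lower). The median log2 difference over members was 0.09, with 61 of 83 positive, beside 0.0016 and 50.2% positive for all genes. By complex the medians were 0.06 for I, 0.10 for II, 0.14 for III, 0.13 for IV and 0.09 for V. Within index set 1 the member median was 0.10 and within set 2 0.05, with 60 of 83 positive in each.

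NDUFA12, an accessory subunit of complex I on chromosome 12 (95290831 to 95397546, GRCh37), read 39.68 and 38.04 CPM in GFP_uninduced, 32.2 and 36.0 in GFP_tracer and 33.0 and 35.8 in GFP_tracer_Dam. In the VP16 clone it read 51.2 and 47.9, 47.0 and 51.2, and 49.2 and 49.4 CPM in the same order of conditions. The lowest VP16 library lay above the highest GFP library, and the log2 difference was 0.46 ± 0.069 (SE, edgeR adjusted p = 0.0063). NDUFA12 passed whichever 1 of the 12 libraries was omitted, the largest edgeR adjusted p being 0.0369. ATP5B ranged from 790.9 to 980.6 CPM (median 902.9) in the GFP clone and from 1067 to 1163 CPM (median 1115) in the VP16 clone. Its libraries did not overlap either, with a difference of 0.31 ± 0.059 (edgeR adjusted p = 0.016). COX7A1 was rare, at 2 to 14 counts per library in the GFP clone and 10 to 19 in the VP16 clone. Its log2 difference was 1.26 ± 0.26 (edgeR adjusted p = 0.025), and the 2 clones overlapped on the CPM scale, at 0.0981 to 0.558 and 0.537 to 0.897 CPM.

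NDUFV1, which carries the NADH-binding site of complex I, ranged from 108.8 to 119.3 CPM (median 113.8) in the GFP clone and from 82.9 to 90.9 CPM (median 88.5) in the VP16 clone. The log2 difference was -0.38 ± 0.060 (edgeR adjusted p = 0.0086), without overlap. NDUFC1, a small accessory subunit, read 33.6, 34.2, 28.7, 33.1, 26.5 and 34.7 CPM in the GFP libraries, with index set 1 before 2 in each condition, and 21.6 to 23.5 CPM in the VP16 libraries. Its difference was -0.49 ± 0.089 (edgeR adjusted p = 0.014), and all 6 VP16 libraries were below all 6 GFP libraries. NDUFC1 shares 1097 bases with NAA15, which read 204.4 to 293.8 CPM in the GFP clone and 188.1 to 247.0 in the VP16 clone. In each condition of each index set NAA15, too, was lower in the VP16 clone. The part of that overlap in the NDUFC1 result was not tested.

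Without overlap between the clones, 8 members were higher and 3 lower in the VP16 clone, 13.3% of those tested, where 10.7% of all genes were so separated. Higher were 4.59% and lower 6.08% of all genes. These members were NDUFA12, NDUFA4, NDUFV2, SDHB, UQCRC2, COX6C, ATP5B and ATP5G2 above, and NDUFV1, NDUFC1 and NDUFS8 below. Without GFP_tracer and GFP_tracer_Dam of index set 1 there were 11 members on each side (13.3% each), against 8.52% of all genes higher and 9.51% lower. Both GFP tracer groups were then of set 2 alone, so these counts partly mix clone with index set. The members next to the threshold were SDHD (-0.29 ± 0.074, edgeR adjusted p = 0.051), NDUFS8 (-0.25 ± 0.067, 0.056), ATP5L (-0.24 ± 0.064, 0.056), NDUFA4 (0.20 ± 0.061, 0.088) and COX6B2 (1.39 ± 0.44, 0.093). SDHD, a membrane anchor of complex II that shares 26 bases with TIMM8B, stood at 59.5 to 72.8 CPM in the GFP clone and 52.3 to 59.6 in the VP16 clone, while SDHB, the iron-sulfur subunit of the same complex, stood at 99.5 to 124.9 and 125.6 to 138.5 CPM.

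With the index set as a replicate block, 18 members passed (21.7%, against 20.9% of all genes), and all 5 above were among them. The 11 higher in the VP16 clone (9.03% of all genes) were NDUFA12, NDUFA2, NDUFA4, NDUFV2, SDHB, UQCRC2, UQCRH, COX6B2, COX7A1, COX7A2 and ATP5B. The 7 lower (11.9% of all genes) were NDUFB5, NDUFC1, NDUFS8, NDUFV1, SDHD, COX8A and ATP5L. So each of complexes I, II, IV and V held members called in both directions, and complex III only members called higher (UQCRC2 and UQCRH). COX6B2 had a difference of 1.43 ± 0.22 with the block (edgeR adjusted p = 0.0040), from 0.119 to 0.733 CPM in the GFP clone and 0.547 to 1.89 in the VP16 clone.

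**Figure D3:**
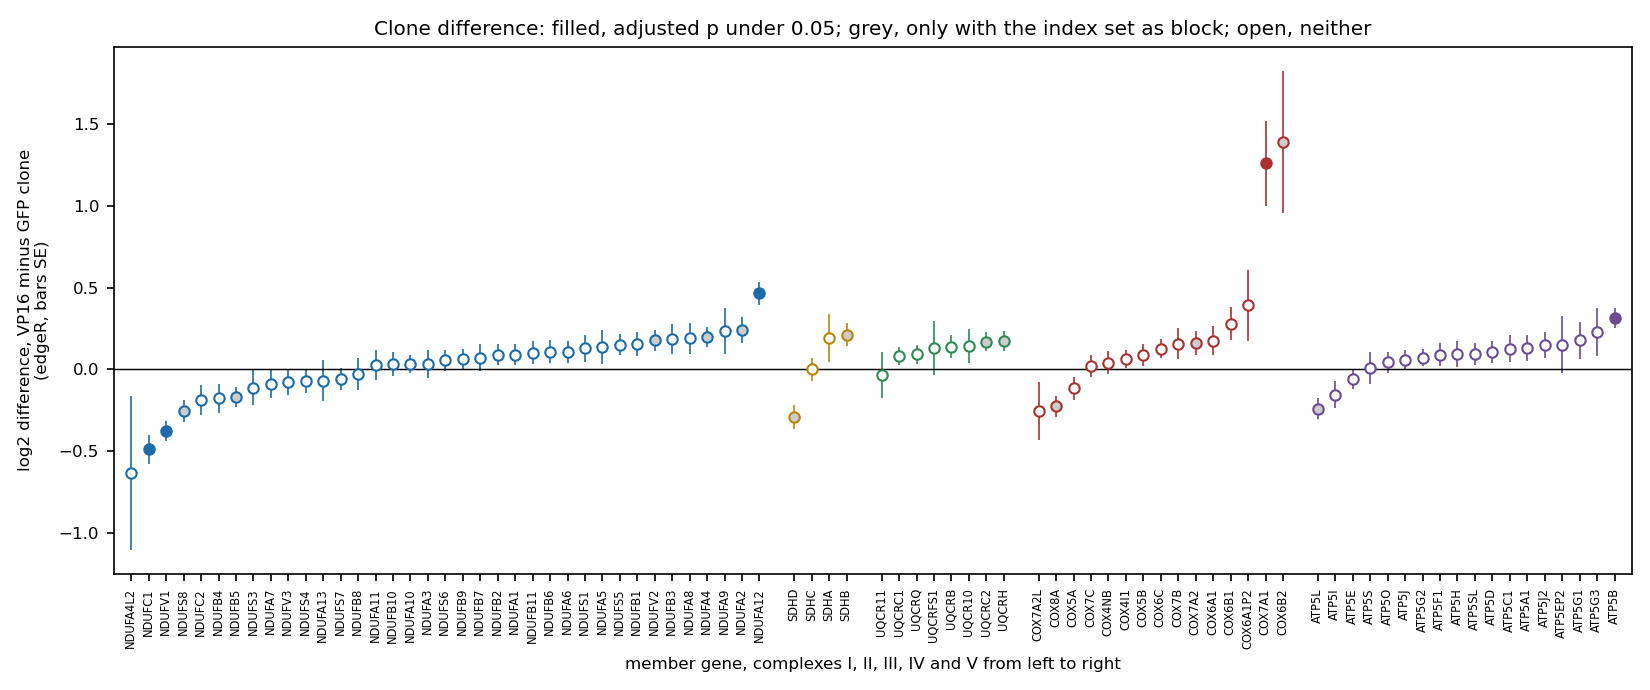
Log2 difference between the clones for tested members, VP16 minus GFP averaged over 3 conditions, with SE bars from edgeR; filled points have an adjusted p under 0.05, grey points pass only in the blocked fit. The filled points are NDUFA12, ATP5B and COX7A1 above zero and NDUFV1 and NDUFC1 below, and most open points lie slightly above zero.

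Leaving out the 2 libraries with high stress genes left GFP_tracer and GFP_tracer_Dam with 1 library each, of index set 2. The VP16 groups kept both sets. Clone and index set are thus partly mixed in such fits without the block, here and below. The positive median was smaller without those libraries. With GFP_tracer and GFP_tracer_Dam of index set 1 left out it was 0.04, and 9 members passed, 2 higher (NDUFA12 and ATP5B) and 7 lower (NDUFB4, NDUFC1, NDUFS8, NDUFV1, SDHD, COX8A and ATP5L), where 10.9% of all genes passed. COX7A1 no longer passed (edgeR adjusted p = 0.074). In the uninduced groups alone 0 members passed in edgeR, with a median of 0.06. That contrast sets 2 libraries against 2, and no share of all genes is given for it. The 0 is therefore not read as a loss of the difference. There NDUFA12 differed by 0.35, NDUFV1 by -0.40 and NDUFC1 by -0.58 (edgeR adjusted p = 0.46, 0.26 and 0.26). With 1 library left out, both the members called and the share of all genes called changed with the library. NDUFV1, too, was lost without VP16_tracer of set 1. ATP5B missed the threshold in 9, COX7A1 in 8 and NDUFC1 in 7 of the 12 such fits.

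The tracer comparison asks what doxycycline withdrawal and tracer expression do in each clone. In neither clone did a member pass (0 of 83 in edgeR with and without the block, DESeq2 and limma-voom). In edgeR 0% of all genes passed, with and without the block. That share is not given for DESeq2 and limma-voom, so their 0 is not read as a result about the members. At an unadjusted p under 0.05 there was 1 member in the GFP clone, COX7A1, and 0 in the VP16 clone. The median log2 difference was -0.11 in the GFP clone, with 71 of 83 members negative, and -0.05 in the VP16 clone, with 64 negative. The SD of the member median between the 2 index sets was 0.0864 and 0.0491. All genes had medians of 0.0067 and -0.0030. In the GFP clone the medians of complexes I to V were -0.11, -0.10, -0.12, -0.12 and -0.08. In the VP16 clone they were -0.03, -0.01, -0.06, -0.07 and -0.08.

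The 2 index sets differed in this. In the GFP clone the member median was -0.17 in set 1 and -0.05 in set 2, and in the VP16 clone -0.08 and -0.0085. With the 2 libraries of high stress genes left out, the GFP median was -0.07, with 68 of 83 members negative. That value sets 1 tracer library of set 2 against uninduced libraries of both sets. In the VP16 clone the uninduced library of set 1 was the highest of all 12 for 37 of the 83 members (44.6%, against 9.22% of all genes), and the set 1 median is measured against it. The difference between the 2 clones in this response had a median of 0.06. In edgeR 0 members and 0% of all genes passed (1 member at an unadjusted p under 0.05, COX7A1).

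Members with the smallest unadjusted p in the GFP clone were COX7A1 (-1.96 ± 0.51), NDUFA2, ATP5I, COX7B and COX6B1 (-0.31 ± 0.17) among the lower and NDUFA4L2 (0.97 ± 0.81), ATP5S, NDUFS4 and COX7A2L among the higher, each with an edgeR adjusted p of 0.999. COX7A1 rests on 9 and 14 counts in GFP_uninduced and 2 and 3 in GFP_tracer. In the VP16 clone NDUFS6 (-0.19 ± 0.11), ATP5L, ATP5F1, ATP5G2 and ATP5S came first among the lower, and COX6B2 (1.04 ± 0.71), NDUFA3, NDUFC1, NDUFS1 and NDUFA8 among the higher (edgeR adjusted p = 1.0). NDUFS6, an accessory subunit of complex I, read 92.999 and 84.27 CPM in VP16_uninduced and 77.7 and 78.2 CPM in VP16_tracer. For the difference between the clones COX7A1, NDUFA2, COX6B1, ATP5EP2 and NDUFA4 came first on the positive side and ATP5S, COX7A2L, NDUFA4L2, NDUFA11 and ATP5G2 on the negative side.

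Dam-LaminB1 was compared with the tracer alone, in libraries that also served in the tracer comparison. Again 0 of 83 members and 0% of all genes passed in edgeR, in either clone. At an unadjusted p under 0.05 there was 1 member in the GFP clone (COX7A1) and 0 in the VP16 clone. In DESeq2 and limma-voom 0 members passed, and the share of all genes is not given for them. Member medians were -0.01 in both clones, with 35 of 83 positive in each. In index set 2 alone, without the libraries of high stress genes, the GFP median was 0.0059. By complex the medians ran from -0.04 (III) to 0.0076 (IV) in the GFP clone and from -0.04 (IV) to 0.00054 (I) in the VP16 clone. In the GFP clone COX7A1 (1.68 ± 0.52), ATP5I, ATP5EP2, COX6A1P2 and ATP5E led the positive side and ATP5J2 (-0.18 ± 0.14), NDUFS6, NDUFB2, ATP5SL and NDUFA6 the negative side. COX7A1 went there from the 2 and 3 counts of GFP_tracer, on which its tracer value also rests, to 9 and 10. In the VP16 clone these were COX6A1P2 (0.48 ± 0.37), NDUFB1, ATP5I, NDUFA11 and NDUFS6, and NDUFA3 (-0.16 ± 0.15), NDUFA10, NDUFC1, NDUFB3 and COX6A1. The difference between the clones had a median of 0.00077, with 0 members and 0% of all genes passing in edgeR and COX7A1 at an unadjusted p under 0.05. NDUFS6, ATP5SL, NDUFB5, NDUFA11 and NDUFB2 came first on its positive side and COX7A1, ATP5EP2, NDUFA3, COX6B2 and NDUFA7 on its negative side.

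Replicates diverged most in the GFP tracer groups. For each member the log2 ratio between the 2 libraries of a group was over 0.5 in size for 12 members in GFP_tracer_Dam and 7 in GFP_tracer, and for 1 to 3 in the other 4 groups, all of those rare (COX6B2, COX7A1 and COX6A1P2, at most 40 counts in a library). All tested genes diverged more: the median size of that ratio was 0.191 for members and 0.464 for all genes in GFP_tracer_Dam, and 0.132 and 0.409 in GFP_tracer. Such members were described and not tested, since each value is 1 library against 1. SDHA, the flavoprotein of complex II, read 105.2 CPM in GFP_tracer and 93.1 in GFP_tracer_Dam of index set 1, while the other 10 libraries read 151.5 to 171.9 CPM. UQCRFS1, the Rieske iron-sulfur protein of complex III, read 40.0 and 31.8 CPM there and 55.6 to 65.3 elsewhere. Both libraries lay below all 10 others for each of these genes.

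In complex V, ATP5G3 read 157.7 and 120.2 CPM in the same 2 libraries and 211.0 to 248.3 in the others, and ATP5G1 read 58.0 and 45.8 against 68.0 to 84.6. ATP5G2, which encodes the same mature c subunit, read 133.6 and 131.3 CPM, inside its range of 129.2 to 147.0 in the other libraries. Its share of the 3 genes' counts was therefore highest in GFP_tracer_Dam of set 1, at 44.2%, against 29.8% in the lowest library. In complex I, NDUFA9 read 20.9 and 17.1 CPM against 27.3 to 32.5, and in complex IV, COX6B1 read 98.7 and 92.3 against 118.8 to 153.5.

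Fewer members went the other way. COX7A2L read 112.6 and 123.6 CPM in these 2 libraries and 63.7 to 79.9 in the others. NDUFA4L2 read 3.68 and 4.31 CPM (75 and 106 counts) and 0.759 to 1.51 in the others. NDUFA4L2 shares 33 bases with SHMT2, at 206.6 and 184.0 CPM in the 2 libraries and 157.2 to 199.9 in the others. NDUFA13, a complex I subunit also known as GRIM-19, read 25.2 and 27.5 CPM against 17.6 to 22.7, and the overlapping gene TSSK6 read 16.6 and 16.9 CPM against 2.80 to 3.80. The part of these overlapping genes was not tested.

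In all, 33 of the 83 members (39.8%) were lower in both libraries than in each of the other 10, and 5 (6.02%) were higher in both. Of all genes, 21.3% were lower and 22.3% higher. The 33 held 13 of 38 members of complex I, 2 of 4 of II, 4 of 8 of III, 5 of 15 of IV and 9 of 18 of V, and the 5 were NDUFA13, NDUFA4L2, NDUFA7, NDUFS4 and COX7A2L. The same pair of groups in index set 2 was below the other 10 libraries for 10 members (12.0%, against 4.06% of all genes) and above them for 0. DDIT3, ASNS and CHAC1 were high in the set 1 libraries as given above, and their part in these differences was not tested.

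**Figure D4:**
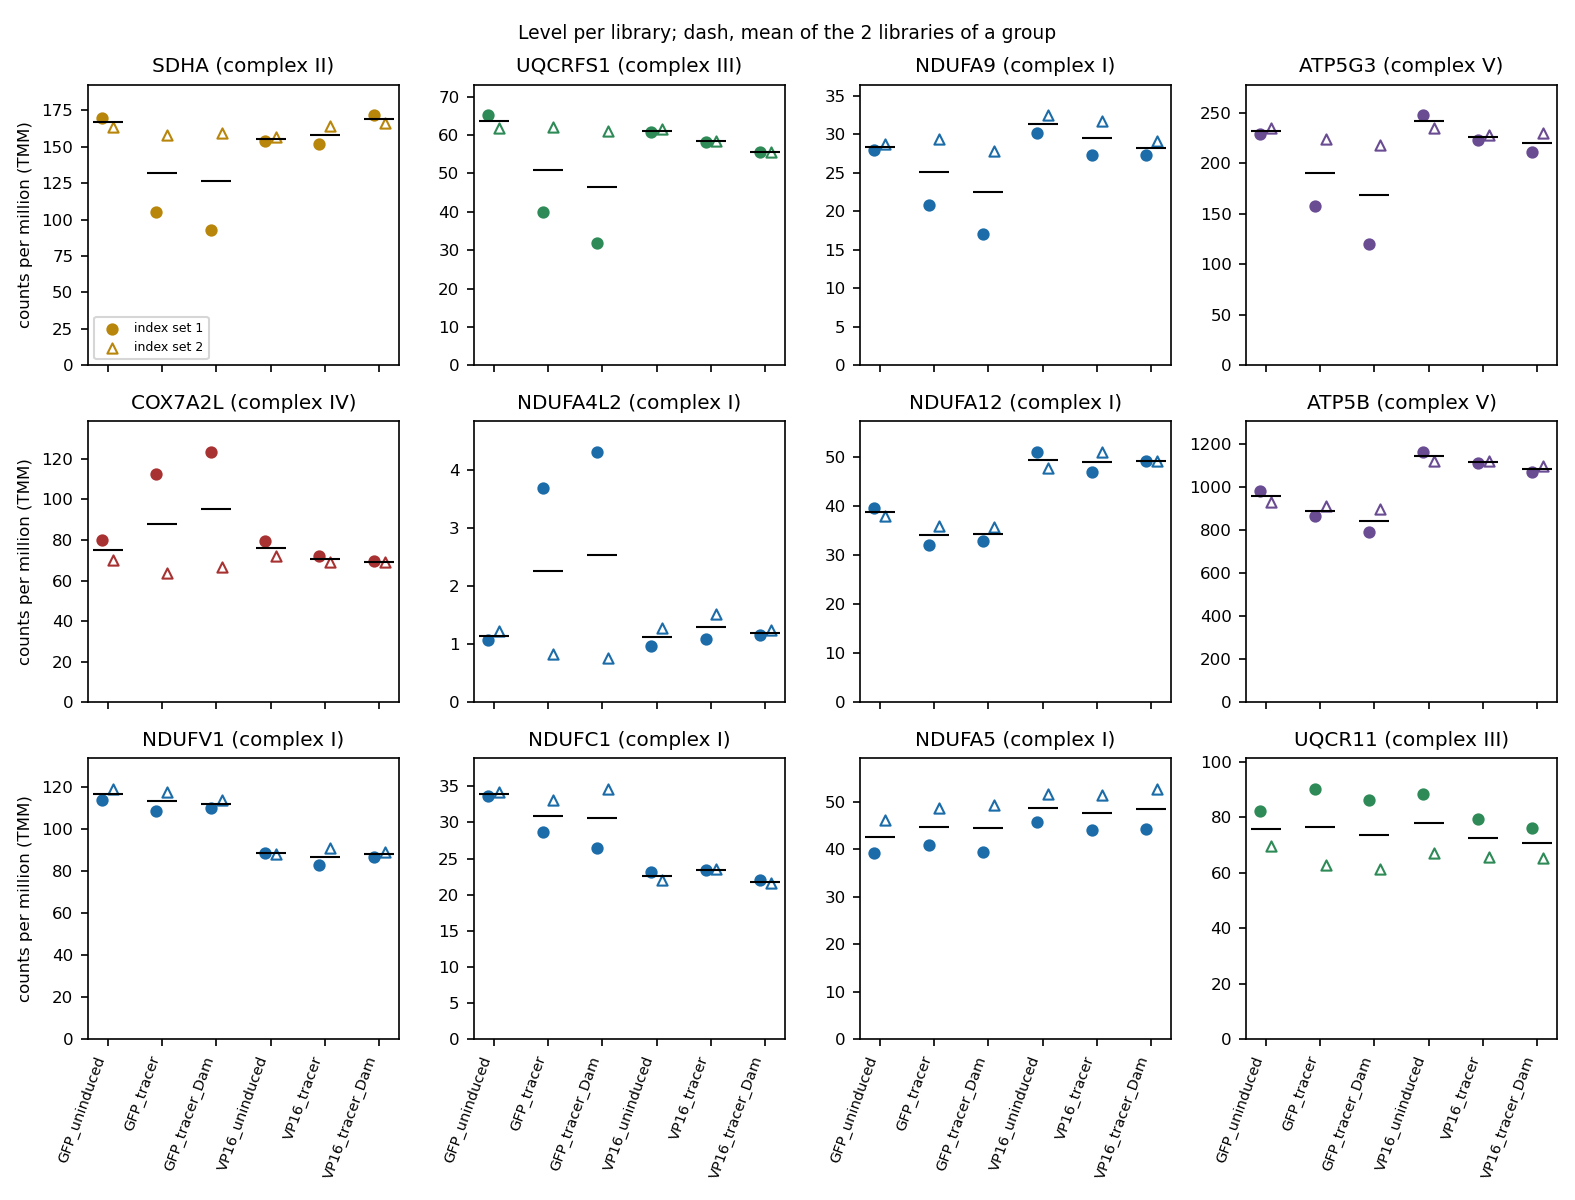
Level in CPM of 12 members in each library, with an axis that starts at 0; filled circles are index set 1, open triangles index set 2, and the dash is the mean of the 2 libraries of a group. In the first row and in COX7A2L and NDUFA4L2 the circles of GFP_tracer and GFP_tracer_Dam stand off from the other 10 points, while NDUFA12, ATP5B, NDUFV1 and NDUFC1 split by clone and NDUFA5 and UQCR11 by index set.

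Summed by complex, the gap between these 2 libraries and the others was uneven. Complex II summed to 324.1 and 303.5 CPM in GFP_tracer and GFP_tracer_Dam of set 1, against 384.0 to 417.8 CPM in the other libraries, and complex V to 2691 and 2472 CPM against 2910 to 3362. For complexes I, III and IV the gap to the other libraries was smaller: complex I summed to 2070 and 2034 CPM against 2148 to 2301, complex III to 893.6 and 872.6 against 919.8 to 1037, and complex IV to 1130 and 1120 against 1144 to 1289. Within complex II the gap was widest for SDHA, while SDHC read 47.3 and 51.5 CPM, within its range of 45.4 to 51.5 elsewhere. By motif, the median log2 difference of set 2 minus set 1 in GFP_tracer_Dam was 0.18 with NRF1 letters in the window and 0.10 without, 0.16 and 0.11 for ETS, 0.13 and 0.14 for YY1, and 0.09 and 0.17 for SP1. In GFP_tracer the same pairs were 0.12 and 0.06, 0.06 and 0.09, 0.08 and 0.09, and 0.05 and 0.10. The motifs thus differed in direction, and the medians describe 1 library against 1 and carry no test.

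**Figure D5:**
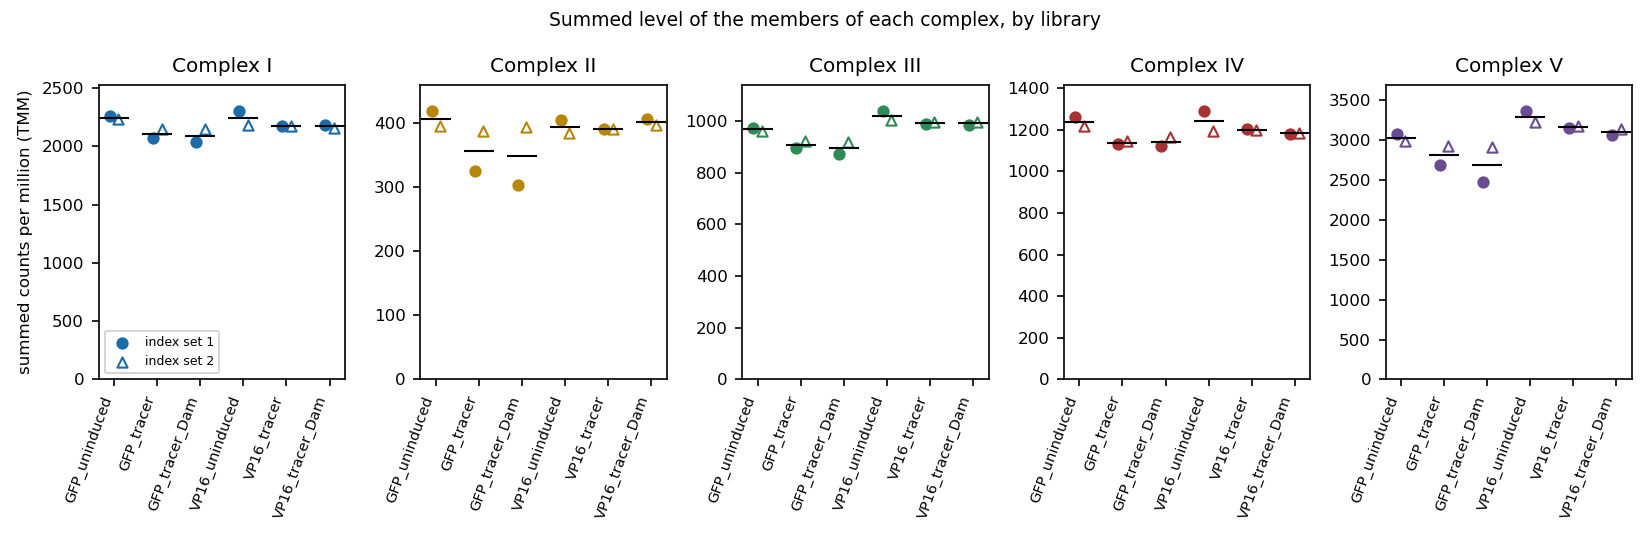
Summed CPM of the members of each complex in each library, with axes that start at 0; filled circles are index set 1, open triangles index set 2 and dashes group means. The circles of GFP_tracer and GFP_tracer_Dam are lowest in every complex, with the widest gap in complex II (324.1 and 303.5) and complex V (2691 and 2472).

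The index sets were then compared with the group as a term. Only 4 of 83 members passed (4.82%), where 28.2% of all genes did, and among genes with a mean of at least 10 CPM the shares were 3.95% and 30.5%. NDUFA5, a subunit of the peripheral arm of complex I, was higher in set 2 by 0.24 ± 0.048 (edgeR adjusted p = 0.0088). It read 39.1 to 45.7 CPM in set 1 and 46.1 to 52.7 in set 2, with no overlap. NDUFS1, the largest core subunit of complex I, was higher by 0.17 ± 0.047 (edgeR adjusted p = 0.032), at 115.3 to 141.1 and 137.8 to 154.5 CPM. UQCR11, the smallest subunit of complex III, was lower in set 2 by -0.36 ± 0.060 (edgeR adjusted p = 0.0046), at 76.1 to 90.3 CPM in set 1 and 61.3 to 69.4 in set 2. COX6B2 was lower by -1.05 ± 0.22 (edgeR adjusted p = 0.011), at 9 to 40 counts in set 1 and 3 to 23 in set 2.

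Next on each side, with an edgeR adjusted p of 0.058 to 0.17, were NDUFA9, NDUFB4 and ATP5C1 on the higher side and NDUFA13 and ATP5H on the lower. The member median was 0.00033 over the 6 groups, while the groups had different signs: -0.05 in GFP_uninduced and -0.09 in VP16_uninduced but 0.09 in GFP_tracer and 0.10 in GFP_tracer_Dam, with -0.01 in VP16_tracer and -0.0037 in VP16_tracer_Dam. Without the 2 libraries of high stress genes 12 members passed, 2 higher and 10 lower in set 2 (against 39.6% of all genes), and with both GFP tracer groups left out 14 passed, 2 higher and 12 lower (against 40.9% of all genes). NDUFA5, NDUFS1, UQCR11 and COX6B2 passed in both, although NDUFS1 missed the threshold in 9 of the 12 fits that left out 1 library. Those added in both were NDUFA2, NDUFA8, NDUFB3, NDUFB7, NDUFV3, UQCR10, COX6B1 and COX7A2, each lower in set 2.

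Genes that work with the members were read on lists. The subunits encoded in mitochondrial DNA had 12 of 13 genes tested, and in the index-set comparison 6 were lower in set 2 and 0 higher. Of all genes 15.6% were lower there and 12.6% higher, and 19.2% and 20.3% without the 2 libraries of high stress genes. MT-CO1, the catalytic subunit of complex IV, read 5587 to 6500 CPM in set 1 and 3459 to 4316 in set 2 (-0.64 ± 0.057, edgeR adjusted p = 0.00045). Of the nuclear members of complex IV only COX6B2 passed there, as given above. With both GFP tracer groups left out, COX6B1 and COX7A2 were among those lower in set 2 too. Between the clones and in the tracer and Dam comparisons 0 of the 12 mitochondrial genes passed without the block, and MT-CO2 and MT-ATP6 passed with it between the clones. With the block 9.03% of all genes were higher between the clones and 11.9% lower. These shares were 15.9% and 17.5% with the 2 libraries also left out. Without the 2 libraries of high stress genes 8 mitochondrial genes were lower in set 2 and 0 higher, and between the clones 0 passed without the block, and 4 higher and 2 lower with it.

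Of 41 assembly factors, 3 were lower in the VP16 clone and 0 higher without the block, and 5 lower and 3 higher with it. Of all genes 2.62% were higher and 5.01% lower without the block, and 9.03% and 11.9% with it. Without the 2 libraries of high stress genes the shares were 4.11% and 6.84%, and with the block as well 15.9% and 17.5%. The 3 lower assembly factors were TMEM126B (-0.66 ± 0.081, edgeR adjusted p = 0.0031), which helps to build complex I, and COX17 (-0.35) and COX18 (-0.35), which serve complex IV. Without the 2 libraries 5 were lower and 0 higher, and with the block as well 9 lower and 3 higher. Of 13 genes of the citric acid cycle, 1 was higher there, citrate synthase (CS, 0.37 ± 0.084, edgeR adjusted p = 0.034), with and without the block. CS read lowest in those 2 libraries, at 227.3 and 191.7 CPM, and without them its difference was 0.28 ± 0.067 (edgeR adjusted p = 0.044). Of 74 mitochondrial ribosomal protein genes tested 0 were higher and 3 lower, 1 higher and 9 lower with the block, and 0 higher and 6 lower without the 2 libraries. Between the index sets 3 assembly factors were higher in set 2 and 5 lower, 3 genes of the cycle were higher and 0 lower, and 1 ribosomal protein gene was higher and 4 lower, where 12.6% of all genes were higher and 15.6% lower. Without the 2 libraries these counts were 5 and 9, 3 and 2, and 4 and 12, beside 20.3% of all genes higher and 19.2% lower. Of 19 regulators 1 passed between the clones without the block, and 2 higher (MTERF and SP1) and 3 lower (PPARGC1A, GABPB2 and ESRRA) with it. PPARGC1A was lower in the VP16 clone by -1.87 ± 0.30 (edgeR adjusted p = 0.0086), while NRF1 (0.0048 ± 0.13) and TFAM (-0.04 ± 0.10) had an edgeR adjusted p of 0.99 and 0.86. PPARGC1A read 2.66 to 5.79 CPM in the GFP clone and 0.593 to 1.57 in the VP16 clone, without overlap. Without the 2 libraries of high stress genes its difference was -1.56 ± 0.28 (edgeR adjusted p = 0.018), and HIF1A passed as higher (0.42 ± 0.073, edgeR adjusted p = 0.016). PPARGC1A was also lower in set 2 (-0.76 ± 0.13, edgeR adjusted p = 0.0046), one of 3 regulators lower there, and NRF1 (0.28), TFAM (0.24) and 3 more were higher (edgeR adjusted p = 0.039 and 0.020 for the first pair). The 5 other nuclear genes of the chain, among them CYC1 and CYCS, gave no call in any comparison without the block, with a median of 0.12 between the clones. Without the 2 libraries 4 of these 5 were lower in set 2, and 10 regulators were higher and 3 lower. In the tracer and Dam comparisons 0 genes of any of these lists passed, beside 0% of all genes.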

How the data were processed

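The deposited table held 1 raw read count per gene for each of 12 libraries. Per the labels' protocols RNA was taken up in Trizol and libraries were made with a TruSeq kit. The submitters' processing notes name GRCh37 as the build, TopHat 1.4.0 with Bowtie 0.12.7 and HTSeq. How HTSeq treated strand and overlaps, and its version, is not given in the sources used here. Reads of overlapping genes (42 members overlap another gene of the table) and of pseudogene copies (24 members have a named one) therefore cannot be assigned with certainty.

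From the counts, 17262 of 36502 genes passed filterByExpr and were fitted with edgeR 4.0.16 (R 4.3.3), with TMM scaling, a robust quasi-likelihood fit of 6 group means and 6 residual degrees of freedom. P-values were adjusted by the Benjamini-Hochberg method over all tested genes with a threshold of 0.05. SE is the size of the log2 difference divided by the square root of F, and a prior count of 2 entered the log2 CPM. The index-set comparison added the set to the groups (5 residual degrees of freedom). Deviations from group means correlated at 0.415 to 0.858 between libraries of the same set over all 15 pairs of groups, so the set was also fitted as a replicate block. No pair of replicates was a duplicate (chi-square per degree of freedom 19.55 to 126.3).

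Members called in any comparison, up to 5 per direction with the smallest p, the 2 highest per complex, members under the filter and the paralog families are named; the members compared between the libraries of high stress genes were chosen after their values were seen. The values of 1 member are not reported here and it is not drawn, although it is counted. Members and lists were chosen with earlier results of these data known. Alternatives were RLE size factors, DESeq2 1.42.0, limma-voom (limma 3.58.1), 2 other filters, fewer groups, the block and left-out libraries. The procedure was run on simulated data for the clone comparison only, with planted changes larger than most clone differences called here. Its outcome is not reported, and the member calls do not rest on it. Coding lengths came from GENCODE 29 and 83 members had one.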

Additional observations from a re-analysis of the deposited data

Results flagged for a closer look

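For complex IV the median log2 difference between Dam with tracer and tracer alone had opposite signs in the clones in both index sets. It was 0.02 and 0.01 in the GFP clone (sets 1 and 2) and -0.04 and -0.0012 in the VP16 clone, and the difference between the clones, VP16 minus GFP averaged over the sets, was -0.0362. The difference was not tested. The medians rest on 15 members. In edgeR's test of the difference between the clones in this response 0 of them passed, beside 0% of all genes. COX7A1 was at an unadjusted p under 0.05 there, and it had 2 and 3 counts in GFP_tracer.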

How the results depend on the processing

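The count of 5 members called between the clones (7.64% of all genes) was 14 with DESeq2 (12.8%), 18 with the index set as a replicate block (20.9%), 0 in the uninduced groups alone, 9 without GFP_tracer and GFP_tracer_Dam of set 1 (10.9%), and 28 with these left out and the block (33.3%). It was 11 (21.7%) in the uninduced contrast of the 4 groups outside GFP_tracer and GFP_tracer_Dam with the block, which was chosen after seeing the data, and 1 to 8 with 1 library left out. The 1 was found without VP16_tracer of set 1, where 3% of all genes passed. The 8 were found without GFP_tracer_Dam of set 2, where 12.3% did. These were also the lowest and highest shares among such fits. For the 0 in the uninduced groups alone no share is given, so it is not read as a loss of the difference. The member median between the clones was 0.0552 in the uninduced groups, 0.0447 without the 2 libraries, 0.0319 with the block as well and 0.0385 in the alternative chosen afterwards. For the Dam comparison the median ranged from -0.0843 to 0.044 (GFP, without GFP_tracer_Dam replicates 2 and 1) and from -0.0231 to -0.0101 (VP16) with 1 library left out, and was -0.00718 without a filter in the VP16 clone. The median difference between the clones in the tracer response was 0.0661 with RLE, 0.0663 with DESeq2, 0.0841 without a filter, 0.0698 at 1 CPM, 0.0703 with the groups compared, 0.025 without the 2 libraries, 0.0195 with the block as well, and 0.017 to 0.115 with 1 left out. In the Dam response it was -0.0642 to 0.0725. The index-set count was 14 without both GFP tracer groups (40.9% of all genes) and 12 without the 2 libraries (39.6%). Leaving these out for the other lists and for the members without overlap was also chosen after seeing the data. Clone and index set are partly mixed where they are left out without the block. The cause of these shifts was not tested. The replicate block gave 0 members in the tracer and Dam comparisons, as without it, beside 0% of all genes in edgeR. Of the other values, 151 counts and 137 medians stayed close to the reported ones, no direction of a called member was reversed, and of the values of single called members 142 passed and 43 missed the threshold. COX7A1 and COX6B2 rest on 2 to 19 and 3 to 40 counts per library, which limits their precision.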
